A study of Homo sapiens with 4 samples.

Results

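The genes described here are 10 genes of pyroptotic and lytic cell death, namely the gasdermins GSDMB, GSDMC, GSDMD and DFNA5, the ninjurins NINJ1 and NINJ2, the inflammatory caspases CASP1 and CASP4, the adaptor PYCARD and the cytokine IL18. They were taken by symbol from the 23228 genes of the deposited count tables, and all 10 symbols were found there. The set was chosen by the measured difference between the groups, since GSDMB was lower and NINJ1 was higher after treatment, so the differences of all 10 genes between the treatment groups are given as a description, without a p-value. RNA was sequenced from ALDH+ ovarian cancer stem cells (OCSCs), labelled as the SKOV3 ovarian cancer cell line, a label taken up below. These are cells sorted by flow cytometry for aldehyde dehydrogenase activity and cultured as spheroids without serum. They received either vehicle (2 samples) or 5 µM LY500307, an agonist of estrogen receptor β (2 samples), for 24 h. Both groups therefore share the sort and the spheroid medium, and both come from 1 cell line, with no line depleted of the receptor for comparison. The labels do not say whether the samples of a group were separate cultures, so the spread between them may be technical.

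Pyroptosis is a lytic form of cell death. Sensor proteins assemble an inflammasome with the adaptor ASC (encoded by PYCARD), which activates caspase-1, and caspase-4 is activated directly by bacterial lipopolysaccharide inside the cell. These proteases cut GSDMD, whose amino-terminal part forms pores in the plasma membrane through which cytokines such as IL-18 leave the cell. Other gasdermins, such as GSDME (the product of DFNA5), are cut by other proteases, GSDMB by granzyme A. NINJ1 then clusters in the membrane and drives its final rupture, in pyroptosis and in other forms of lytic death.

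Between 28841701 and 34943882 reads per sample were counted on genes, and reads aligned to more than 1 place, from 32.3% to 33.4% of all tallied alignments, were not counted. The LY500307 replicates differed more from each other (chi-square per degree of freedom 36.5) than the vehicle replicates did (4.79), so each difference was also computed without each sample. Of the markers of ovarian carcinoma cells, PAX8 had 0 reads in every sample and KRT7, KRT19 and CDH1 had at most 4 reads, whereas EPCAM had between 6213 and 8327 reads and KRT18 between 668 and 1030. ERBB2, for whose amplification SKOV3 is known, had between 1452 and 2060 reads. CDKN2A, which SKOV3 is known to have lost and which was looked up after the values were seen, had between 834 and 1107 reads. The near absence of PAX8, KRT7, KRT19 and CDH1 and the reads on CDKN2A go against the label in all 4 libraries alike. The reads on EPCAM and KRT18 do not, and the ERBB2 level was not compared with another line. The samples are called SKOV3 here only because the labels do so. Over the 10 epithelial markers, the summed level was 285 and 294 CPM (counts scaled to a common library size by edgeR's TMM method) in the vehicle samples and 330 and 284 CPM in the LY500307 samples. Most of this sum came from EPCAM alone (208 and 219 CPM with vehicle, 240 and 194 CPM with LY500307). The 6 aldehyde dehydrogenase genes that may be read by the sort summed to between 159 and 173 CPM. Most of this came from ALDH1B1 and ALDH2, while ALDH1A1 had between 4.71 and 5.41 CPM. ESR2, the gene of the receptor that LY500307 binds, had between 7 and 12 reads.

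Of the 10 genes, 5 were expressed at a level that could be compared and 5 were not. NINJ1, CASP4, GSDMB, DFNA5 and CASP1 passed edgeR's filter on low counts. GSDMC, GSDMD, NINJ2, PYCARD and IL18 did not, and none of them exceeded 8 reads in any sample. The filter is passed through the level in either group, so the number that passed is no result of its own. A count of 0 still allows up to 3 reads, which at these depths is between 0.0864 and 0.106 CPM. These limits, like the intervals below, cover counting error only.

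**Figure D1:**
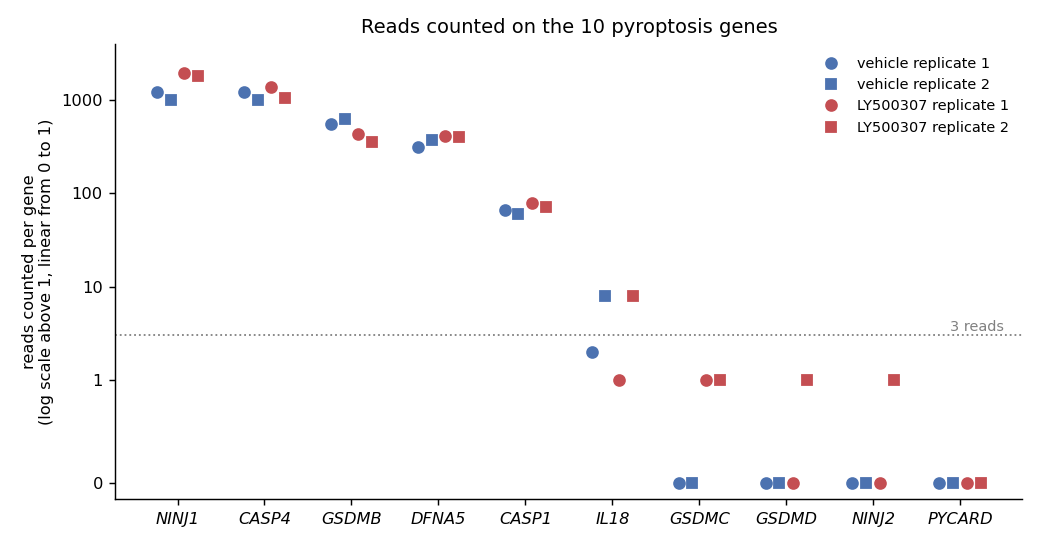
Reads counted on each of the 10 genes (y axis, log scale above 1 and linear from 0 to 1) in the 2 vehicle samples (blue) and the 2 LY500307 samples (red), with circles for replicate 1 and squares for replicate 2. For NINJ1 both red points lie above both blue points and for GSDMB both lie below, while GSDMC, GSDMD, NINJ2 and PYCARD stay at 0 or 1 read; the dotted line marks 3 reads.

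Among the gasdermins, GSDMB carried most of the reads in the vehicle samples and was lower after LY500307. GSDMB lies on the minus strand of chromosome 17 of GRCh37, from 38060848 to 38076107. It was counted 555 and 621 times in the vehicle samples and 438 and 355 times in the LY500307 samples. After normalization these counts were 18.5 and 21.9 CPM with vehicle against 12.6 and 11.0 CPM with LY500307. Each LY500307 sample lay below either vehicle sample, and the gap between the groups was wider than the gap between the replicates of either group. The group levels were 20.2 ± 2.36 CPM (SD, n = 2) and 11.8 ± 1.16 CPM (SD, n = 2). The log2 fold change was -0.77 ± 0.16 (SE), a level that fell by 41.5% with LY500307. In RNA from whole cultures, fewer cells that express a gene and less RNA of it per cell cannot be told apart. Without each sample in turn, the log2 fold change of GSDMB lay between -0.89 and -0.65.

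DFNA5, whose protein GSDME can turn apoptosis into lytic death, was counted 314 and 374 times with vehicle and 410 and 398 times with LY500307. Its level was 11.8 ± 1.90 CPM (SD, n = 2) with vehicle and 12.1 ± 0.353 CPM (SD, n = 2) with LY500307. The groups overlapped, and the log2 fold change of 0.03 ± 0.17 (SE) was smaller than its error. It ranged from -0.13 without vehicle replicate 1 to 0.20 without vehicle replicate 2, so that its sign turned with the sample left out.

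GSDMD, the gasdermin that executes inflammasome-driven pyroptosis, had 0 reads in both vehicle samples and in LY500307 replicate 1, and 1 read in LY500307 replicate 2. GSDMC, which caspase-8 can cut, had 0 reads in both vehicle samples and 1 read in each LY500307 sample. Neither gene can be compared at this depth. Genes near GSDMD had reads, which cannot show whether RNA of GSDMD itself would have been counted. All 8 counted genes within 100000 bases of GSDMD passed the filter. Of them 1, PYCRL, was called as higher in edgeR, where 2.76% of all genes tested were. PYCRL had 9.61 and 9.46 CPM with vehicle and 11.4 and 16.8 CPM with LY500307. EEF1D, a subunit of a translation elongation factor, had 3833 and 4242 reads in the vehicle samples. These neighbours were chosen after their values were seen. Few of the 50-base windows in the annotated exons of GSDMD, 1.42%, occur at more than 1 place of the genome, as against 8.37% for GSDMB.

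Of the 2 gasdermin genes outside the 10, GSDMA had 0 reads in all samples. DFNB59, which encodes pejvakin, a family member known for its role in hearing, had 100 and 80 reads with vehicle and 77 and 64 reads with LY500307. Its log2 fold change was -0.55 ± 0.27 (SE), which did not meet the criteria given below. Within each sample, GSDMB took 57.3% (54.1 to 60.4, Wilson 95% interval) and 57.8% (54.8 to 60.7) of the reads on the 6 gasdermin genes in vehicle replicates 1 and 2. With LY500307 this share was 47.3% (44.1 to 50.5) for replicate 1 and 43.3% (40.0 to 46.8) for replicate 2. These intervals cover counting within 1 sample and not the spread between samples, and the direction of the difference was fixed by the choice of GSDMB. The share of DFNA5 was 32.4% and 34.8% with vehicle and 44.3% and 48.6% with LY500307. The level of DFNA5 itself hardly differed, so its larger share follows largely from the lower GSDMB and is no separate result.

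NINJ1, the member with the highest level per length of transcript, was higher after LY500307. It lies on the minus strand of chromosome 9 of GRCh37, from 95883778 to 95896533. It was counted 1212 and 991 times in the vehicle samples and 1967 and 1798 times in the LY500307 samples, or 40.4 and 34.9 CPM against 56.7 and 55.6 CPM. Both LY500307 samples were above both vehicle samples, and they differed less from each other than the vehicle samples did. The group levels were 37.7 ± 3.94 CPM (SD, n = 2) and 56.2 ± 0.742 CPM (SD, n = 2). The log2 fold change was 0.58 ± 0.12 (SE), a ratio of 1.49. It was 0.47 without vehicle replicate 2 and 0.48 with a correction for the GC content of exons, both within the limit of 0.5 used for a call, and 0.69 without vehicle replicate 1. The exons of NINJ1 have a GC content of 59.3% and those of GSDMB of 50.3%. NINJ2, a related membrane protein, had 0 reads in 3 samples and 1 read in LY500307 replicate 2. The number of NINJ1 reads per GSDMB read was 2.18 and 1.60 in the vehicle samples and 4.49 and 5.06 in the LY500307 samples, a direction that the choice of these genes fixed.

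The sequence upstream of NINJ1 is shown with those of DFNA5 and CASP4, which are the other members with a comparable level for which RefSeq gave a promoter (GRCh38.p14, a later build than that of the counts). Entries were found for 5 of the 10 genes, and GSDMB was not among them. Each line gives the 250 bases before the gene's start, 5′ to 3′ on the gene's strand. Capitals mark GGGCGG on either strand, the GC box read by Sp-family factors. These windows are NINJ1 at chr9:93134252-93134501, DFNA5 at chr7:24757465-24757714 and CASP4 at chr11:104968575-104968824, all on the minus strand.
NINJ1: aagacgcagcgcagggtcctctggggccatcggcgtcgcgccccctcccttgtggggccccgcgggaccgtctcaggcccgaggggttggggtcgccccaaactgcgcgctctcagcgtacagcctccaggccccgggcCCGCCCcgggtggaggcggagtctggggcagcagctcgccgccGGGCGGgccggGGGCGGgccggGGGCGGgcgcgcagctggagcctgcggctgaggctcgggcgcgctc
DFNA5: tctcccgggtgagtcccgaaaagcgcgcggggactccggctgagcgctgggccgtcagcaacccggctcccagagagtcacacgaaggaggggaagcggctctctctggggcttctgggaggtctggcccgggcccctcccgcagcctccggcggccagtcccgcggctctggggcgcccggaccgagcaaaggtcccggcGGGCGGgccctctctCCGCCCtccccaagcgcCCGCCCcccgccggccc
CASP4: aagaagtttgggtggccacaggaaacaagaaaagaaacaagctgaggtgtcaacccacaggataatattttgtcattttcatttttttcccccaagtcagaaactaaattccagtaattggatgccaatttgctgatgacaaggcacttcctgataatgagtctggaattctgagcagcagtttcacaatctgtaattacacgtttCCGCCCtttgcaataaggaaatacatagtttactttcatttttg
The GC box occurred 4 times upstream of NINJ1, 3 times upstream of DFNA5 and 1 time upstream of CASP4, and 42.6% of 35116 promoter windows of this length held at least 1. The estrogen response element half-site, GGTCA on either strand, was in none of the 3 windows, whereas 32.6% of all windows held it. The full element, in which a pair of such half-sites face each other across 3 bases, was in 0.0399% of all windows and in none of these. Upstream of NINJ2, which had at most 1 read, both windows given by RefSeq held 2 GGTCA half-sites each, and the window of PYCARD held none. The absence of these letters from 250 bases says nothing of sites elsewhere. The windows of NINJ1 and DFNA5 were rich in GC (79.6% and 76.4%) and that of CASP4 was not (38.0%), where the median over all windows was 58.0%.

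Neither caspase among the 10 genes was called as different between the groups. CASP4, the sensor of cytosolic lipopolysaccharide, was counted 1220 and 1000 times with vehicle and 1378 and 1047 times with LY500307. Its level was 37.9 ± 3.90 CPM (SD, n = 2) with vehicle and 36.0 ± 5.17 CPM (SD, n = 2) with LY500307. The groups overlapped, and the log2 fold change was -0.07 ± 0.15 (SE). Its sign turned with the GC correction (0.05), without vehicle replicate 1 (0.03) and without LY500307 replicate 2 (0.07), and the value was lowest without LY500307 replicate 1 (-0.23). CASP1, the protease of the canonical inflammasome, was counted only 67 and 60 times with vehicle and 79 and 72 times with LY500307. Its level was 2.17 ± 0.0879 CPM (SD, n = 2) and 2.25 ± 0.0345 CPM (SD, n = 2), and the log2 fold change was 0.05 ± 0.28 (SE). This error was the largest among the 5 tested members, and CASP1 had the fewest reads of them.

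PYCARD, whose protein ASC links sensors to caspase-1, had 0 reads in all 4 samples. Of the 8 counted genes within 100000 bases of it, 5 passed the filter, among them BCKDK, a kinase of branched-chain amino acid breakdown chosen after its values were seen, with 1885 and 1906 reads in the vehicle samples. None of the 50-base windows of the exons of PYCARD occurs at more than 1 place. IL18 had 2 and 8 reads with vehicle and 1 and 8 reads with LY500307. The replicates of each group differed more than the groups did, so no change of IL18 can be called. The 8 reads in replicate 2 of each group exceeded the 3 reads that a count of 0 allows, but the level was low. No annotated exon of the 10 genes overlapped an exon of another counted gene.

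Levels of different genes can be compared only per length of transcript, for which RPKM values were used, that is, the CPM value per kilobase of annotated exon, where the length joins the exons of all annotated isoforms. In the vehicle samples the order was NINJ1 (14.5 ± 1.51 RPKM, SD, n = 2), CASP4 (5.69 ± 0.586), GSDMB (3.42 ± 0.399), DFNA5 (1.37 ± 0.221) and CASP1 (0.548 ± 0.0222). The ranges of neighbours in this order did not overlap, though they cover no error in the lengths. With LY500307 the order was the same, with NINJ1 at 21.6 ± 0.285 RPKM (SD, n = 2), CASP4 at 5.41 ± 0.776, GSDMB at 2.00 ± 0.196, DFNA5 at 1.40 ± 0.0411 and CASP1 at 0.568 ± 0.00869. The gap between GSDMB and DFNA5 narrowed, and that between NINJ1 and CASP4 widened, directions that the choice of GSDMB and NINJ1 largely fixed. The RPKM order rests on the lengths used. In CPM, NINJ1 (37.7) and CASP4 (37.9) were nearly equal with vehicle, as were GSDMB (11.8) and DFNA5 (12.1) with LY500307. Over all samples, 79.3% of the genes tested had a lower RPKM level than NINJ1, 49.1% a lower one than CASP4, 33.8% a lower one than GSDMB, 24.2% a lower one than DFNA5 and 15.5% a lower one than CASP1.

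At the criteria of the study for a differentially expressed gene (DEG), an unadjusted p-value below 0.05 and a log2 fold change above 0.5 in size, 2 of the 5 tested members were called in edgeR's quasi-likelihood test, GSDMB as lower and NINJ1 as higher. Over all 14473 genes tested, 4.62% were called, 1.86% as lower and 2.76% as higher. Groups without overlap, as seen for both genes, were found for 24.4% of all genes in the lower direction and for 24.2% in the higher. Since these 2 genes were the reason for assembling the set, nothing is read from their count. The median log2 fold change over the 5 tested members was 0.03, and over all genes tested it was -5.64e-05. With edgeR, 0 genes of all those tested had a Benjamini-Hochberg adjusted p below 0.05, while 1678 (11.6%) had an unadjusted p below 0.05. DESeq2 also called GSDMB as lower and NINJ1 as higher, beside 3.07% of all genes called (1.1% as lower and 1.98% as higher), and in its test 16 genes (0.137%) passed an adjusted p of 0.05.

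**Figure D2:**
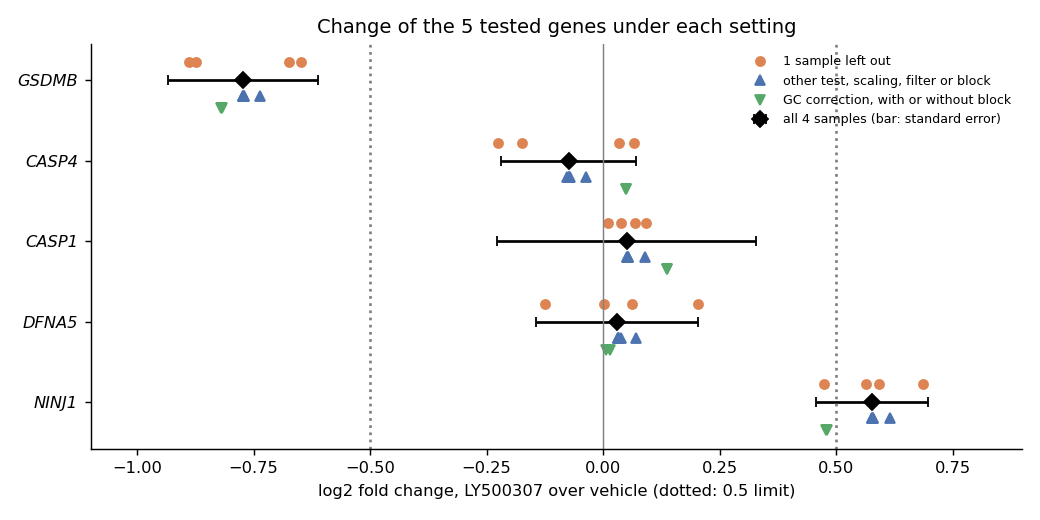
Log2 fold change of LY500307 over vehicle (x axis) for the 5 tested genes, with all 4 samples (black diamonds, bars give the standard error), with 1 sample left out (orange), with another test, scaling, filter or block (blue) and with GC correction (green). GSDMB stays beyond the limit of 0.5 in every fit shown (-0.89 to -0.65), NINJ1 falls within it in 3 (0.47 to 0.69 overall), and the other 3 genes stay near 0.

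Beyond the 10 genes, lists written from general knowledge, though with earlier results of these data known, gave 68 further genes of the pathway. Of these, 11 had 0 reads in all samples, and 42 passed the filter. In edgeR's test 1 gene was called as higher and 1 as lower, while 40 were not called, beside 4.62% called over all genes. Their median log2 fold change was 0.02.

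Several inflammasome sensors had few reads, while NLRP2 had 1902 and 1672 reads with vehicle and 2290 and 2627 with LY500307, and CARD8 had 1433 and 1404 against 1630 and 1584; these 2 were named after their values were seen. NLRP3, the sensor of membrane damage and ion loss, was the gene called as lower, but it rested on 10 and 15 reads with vehicle against 5 and 2 reads with LY500307. The ratio was 0.249 with an adjusted p of 0.427 in edgeR. It was not called by DESeq2, nor without vehicle replicate 2 or either LY500307 replicate (log2 fold changes of -1.64, -2.71 and -1.55). NLRC4, NAIP and AIM2, sensors of bacterial proteins and of cytosolic DNA, had at most 5 reads in any sample. The most highly counted gene of this list over the 4 samples was DPP9, a dipeptidase that restrains the NLRP1 and CARD8 inflammasomes, with 2357 and 2269 reads with vehicle and 3186 and 2899 reads with LY500307. Its log2 fold change was 0.20 ± 0.10 (SE), which did not meet the criteria. Of the 21 genes of this list 10 were tested, 0 were called as higher by edgeR or DESeq2, and NLRP3 was the only one with an unadjusted p below 0.05 (1 with edgeR, 0 with DESeq2).

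In the caspase cluster, reads on CARD16 far outnumbered those on CASP1. CARD16 encodes a short protein with a caspase recruitment domain that inhibits caspase-1, and it lies 6076 bases from CASP1. It had 2256 and 2272 reads with vehicle and 3068 and 2776 reads with LY500307. Per CASP1 read there were 33.7 and 37.9 CARD16 reads in the vehicle samples and 38.8 and 38.6 in the LY500307 samples. Of the 50-base windows of CARD16, 19.5% occur at more than 1 place, as do 7.48% of those of CASP1. Reads aligned to more than 1 place were not counted, so both counts can be too low, by an amount that was not measured. The log2 fold change of CARD16 was 0.17 ± 0.10 (SE). CASP5 had between 8 and 18 reads. None of the 7 genes of this list was called by either edgeR or DESeq2, in each of which 0 had an unadjusted p below 0.05.

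The cytokines themselves had few reads. Of 12 genes of the interleukin-1 family and its receptors, IL1A, IL1RN, IL1R2, IL18RAP and IL1RL1 had 0 reads in every sample, and IL1B had at most 3. IL18BP, a secreted antagonist of IL-18, was the most highly counted, with 514 and 567 reads with vehicle and 538 and 441 with LY500307. Its log2 fold change was -0.35 ± 0.16 (SE), which was not called. Of the 2 genes tested in this list, 0 met the criteria, and 0 had an unadjusted p below 0.05, in edgeR or DESeq2.

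Among proteases outside the inflammasome that cut gasdermins, CASP6, an apoptotic caspase, had 834 and 703 reads with vehicle and 1085 and 930 with LY500307. CASP8, the caspase of death receptors, had 1041 and 1044 reads with vehicle and 1392 and 958 with LY500307. Their log2 fold changes were 0.19 ± 0.13 (SE) for CASP6 and -0.03 ± 0.16 (SE) for CASP8. Of the 4 genes of this list that were tested, 0 were called by edgeR or DESeq2, with 0 at an unadjusted p below 0.05 in each. GZMA and GZMB, granzymes of cytotoxic lymphocytes, and ELANE and CTSG, proteases of neutrophils, had 0 reads in every sample.

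Of 17 genes that regulate pore assembly by GSDMD or repair the membrane, all were tested and 1 was called, as higher. This was C7orf59, now named LAMTOR4, a subunit of the Ragulator complex on lysosomes, with 1248 and 1149 reads with vehicle and 1685 and 2236 reads with LY500307. Its log2 fold change was 0.52 ± 0.17 (SE) with an adjusted p of 0.422 in edgeR, and it was not called with the replicate block, with GC correction, or without vehicle replicate 2 (0.50, just within the limit). Without LY500307 replicate 2 it was 0.24 and not called, and without LY500307 replicate 1 it was 0.76. The median over the list was 0.13, and 12 of its genes had a positive log2 fold change, where 50.0% of all genes did. An unadjusted p below 0.05 was reached by 2 genes of this list with edgeR and by 2 with DESeq2. With edgeR, 11.6% of all genes tested reached it. The most highly counted gene, CHMP2B of the membrane-remodelling ESCRT-III complex, had 5225 and 4838 reads with vehicle and 5563 and 4654 with LY500307, and was not called.

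In the necroptosis list, RIPK1 was the most highly counted gene, with 1770 and 1545 reads with vehicle and 2051 and 1631 with LY500307. RIPK3 had at most 2 reads and ZBP1 had 0 in every sample. MLKL, the pore-forming protein of necroptosis, had 32 and 37 reads with vehicle and 30 and 21 with LY500307. Of the 3 genes of this list that were tested, 0 met the criteria, and 0 had an unadjusted p below 0.05, in edgeR or DESeq2. Inflammasome genes are used widely by leukocytes, whose markers were therefore looked at. The leukocyte antigen gene PTPRC had at most 4 reads in any sample, 12 of the 14 leukocyte markers had at most 15, and MS4A1 and NKG7 had 0. The summed level of the 14 markers was 13.4 and 15.8 CPM with vehicle and 19.6 and 12.9 CPM with LY500307, most of it from the lysosomal gene CD68.

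**Figure D3:**
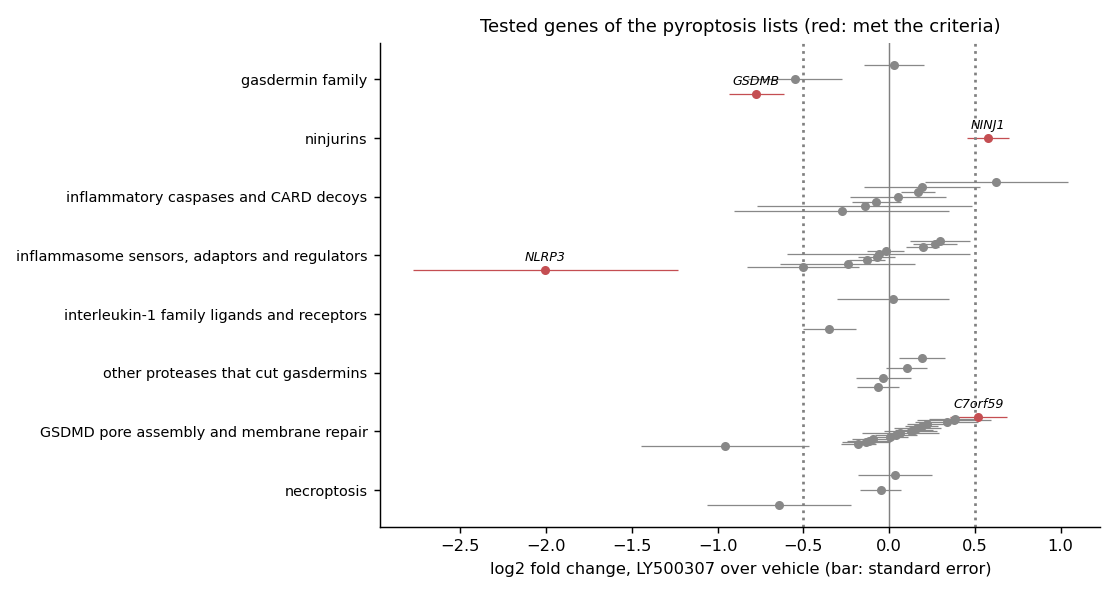
Log2 fold change of LY500307 over vehicle (x axis, bars give the standard error) for each tested gene of the 8 lists (y axis), with genes that met the criteria in red and named. Apart from GSDMB and NINJ1 only C7orf59, at a log2 fold change of 0.52, and NLRP3, at a ratio of 0.249 and so to the left, met the criteria, and the bar of NLRP3 is wide.

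The genes next to GSDMB did not follow it in a common direction. ORMDL3, a regulator of sphingolipid synthesis that lies 1187 bases upstream of GSDMB, had 1604 and 1480 reads with vehicle and 1956 and 2104 with LY500307, a log2 fold change of 0.20 ± 0.12 (SE). PSMD3, a proteasome subunit, and MED24, a Mediator subunit, had log2 fold changes of 0.18 each. IKZF3, a lymphoid transcription factor gene on the other side of GSDMB, had 59 and 63 reads with vehicle and 48 and 40 with LY500307, a log2 fold change of -0.67 ± 0.32 (SE). None of these 4 genes was called by edgeR with all genes that passed its filter, and IKZF3 was called in 1 alternative, the fit over genes with at least 50 counts in 2 samples. The other 4 genes within 100000 bases (GSDMA, ZPBP2, LRRC3C and CSF3) had at most 3 reads.

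Beside NINJ1, 1 of the 3 tested neighbours was called as higher, where 2.76% of all genes were. C9orf89, the symbol used for CARD19, encodes a protein with a caspase recruitment domain and lies 8213 bases from NINJ1. It had 295 and 256 reads with vehicle and 384 and 508 with LY500307, a log2 fold change of 0.51 ± 0.20 (SE) with an adjusted p of 0.428 in edgeR. It was not called without vehicle replicate 1 (0.57), vehicle replicate 2 (0.44) or LY500307 replicate 2 (0.23), nor with the replicate block or GC correction, and it was 0.74 without LY500307 replicate 1. WNK2, a kinase gene upstream, had a log2 fold change of -0.17 ± 0.13 (SE), and FGD3 had 0.26 ± 0.40 (SE); neither was called. SUSD3, between CARD19 and FGD3, had at most 3 reads.

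**Figure D4:**
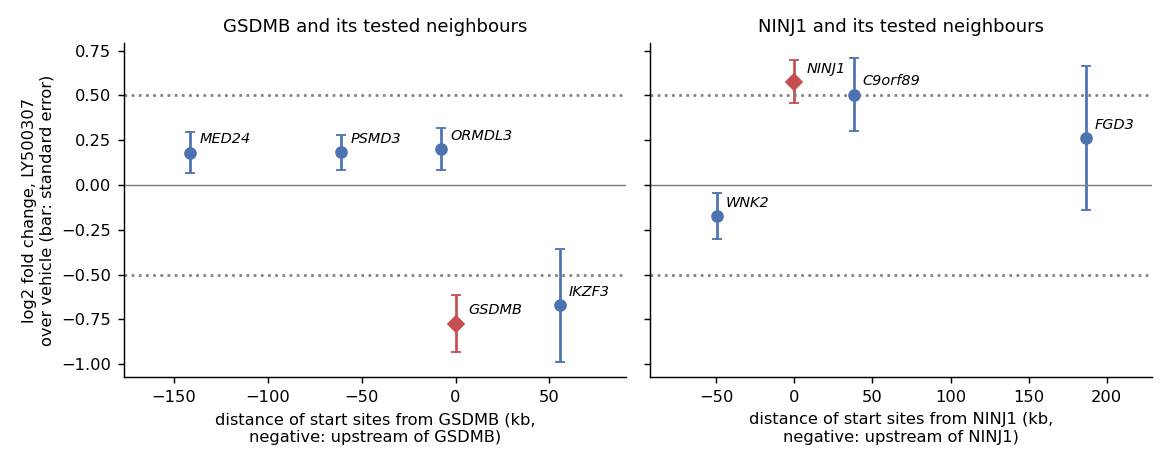
Log2 fold change of LY500307 over vehicle (y axis, bars give the standard error) for GSDMB (left) and NINJ1 (right) as red diamonds, and for their tested neighbours in blue, against the distance between start sites in kilobases (x axis, negative values lie upstream). ORMDL3, PSMD3 and MED24 lie at about 0.2, while GSDMB lies at -0.77 and IKZF3 at -0.67. C9orf89 lies at 0.51 near NINJ1 at 0.58, while WNK2 lies at -0.17 and FGD3 at 0.26.

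Some genes elsewhere had nearly the same profile over the 4 samples. Likeness was taken as the root mean square difference of log2 CPM, each gene centred on its own mean, among 9852 genes with a mean of at least 10 CPM. Closest to GSDMB were NCRNA00263 (0.034), NCRNA00085 (0.051) and SH3D21 (0.066). NCRNA00263, a non-coding RNA gene, had 766 and 803 reads with vehicle and 586 and 481 with LY500307, a log2 fold change of -0.76. Closest to NINJ1 were HLA-DOA (0.017), PDCL3 (0.032) and AHNAK (0.049). HLA-DOA, a modulator of peptide loading on MHC class II molecules, had 596 and 484 reads with vehicle and 937 and 869 with LY500307, a log2 fold change of 0.55. With 4 samples in 2 groups, such a likeness follows in large part from the group difference alone.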

How the data were processed

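RNA-seq counts of 2 vehicle and 2 LY500307 samples, grouped by their titles, were analysed. The authors aligned 50 nt single-end reads to hg19 with TopHat2 2.0.8b, counted them per gene symbol with HTSeq and deposited raw counts without normalization; the annotation and the strand setting are not given in the sources used here. Without a stated strand setting, overlapping antisense genes are uncertain. Tally lines that name no gene (reads outside genes, ambiguous or aligned to more than 1 place, together 50.0% to 54.4% of the tally) were left out. Counts were tested with edgeR 4.0.16 in R 4.3.3 (TMM, filterByExpr, quasi-likelihood test, Benjamini-Hochberg adjustment). The standard error is the log2 fold change divided by the square root of F. With 2 samples per group, an exact permutation test cannot give a two-sided p below 0.333. Tests were checked on simulated counts. Alternatives were DESeq2 1.42.0, its size factors, library totals alone, other filters, the replicate number as a block, a loess correction for exonic GC content (span 0.3) and leaving out each sample. Exons came from a GRCh37 annotation, matched to 91.8% of symbols, 2180 by an older symbol. The members and lists were chosen with earlier results of these data known. All 10 members were named. Further genes were named where they were called, at 0 or most highly counted in a list, within 100000 bases of GSDMB or NINJ1, or among the 3 most alike in profile; others were named after their values were seen. Some genes of the lists are not reported here.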

Additional observations from a re-analysis of the deposited data

How the results depend on the processing

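Over the 12 alternatives, the log2 fold change of GSDMB lay between -0.89 and -0.65 and that of NINJ1 between 0.47 and 0.69. These 2 genes were the reason for assembling the set. All alternatives draw on the same 4 samples, so these ranges are a description. GC correction left 1 called member, GSDMB, whether or not the replicate block was added (1 in either fit), and leaving out a sample left 1 to 2. Of the 68 pathway genes, 0 were called as higher under GC correction, under the replicate block or under both together (0 in each), and 0 to 3 with a sample left out. As lower, 0 were called with DESeq2, with all genes that had at least 1 count and with at least 50 counts in 2 samples, and 0 to 2 with a sample left out. NLRP3 does not pass the last of these filters. The cause of the other shifts was not tested. Over all genes, 669 were called (59.8% as higher), and with a sample left out from 352 (LY500307 replicate 2 removed) to 1987 (LY500307 replicate 1 removed). Adding the replicate block gave 717 calls, and adding it together with GC correction gave 561, of which 47.6% were higher. The higher share was 51.2% under GC correction alone, 69.7% by library totals alone and 42.0% without LY500307 replicate 2. An adjusted p below 0.05 was reached by 0 genes with edgeR, 16 with DESeq2, 1 with the replicate block, 590 without LY500307 replicate 2 and 5002 without LY500307 replicate 1, where a lone sample is assumed to vary like the other group. The labels give same-numbered samples only a shared number. Their deviations correlated at -0.07 over the genes tested, but 2 replicate pairs cannot show whether they shared a culture or batch. The depth limits GSDMC, GSDMD, NINJ2, PYCARD and IL18, which could not be compared.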
